A study of Homo sapiens with 6 samples.

Results

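The p53 response genes are 33 genes named as regulators or direct targets of the transcription factor p53, without the CDK inhibitors and the BCL2 family. They were taken by gene symbol out of 57861 genes with a usable value in every library, and all 33 were found as 1 row each. RNA sequencing had been run on 6 libraries of MOLP-8 cells, an established line grown from a human multiple myeloma. The LIN28B KO group held 3 libraries of cells transduced with the lentiCRISPRv2 vector carrying a guide against LIN28B, and the control group held 3 libraries of cells transduced with the same vector and a scrambled guide; both were selected with puromycin. The titles call the first group KD and the condition label calls it KO. The labels name neither clones nor cultures, so the cells may be a pool or a clone, and every p-value below reflects a spread between libraries that could be technical alone.

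p53 is kept low in unstressed cells by MDM2, a ubiquitin ligase that marks it for degradation, and by the related protein MDM4, which blocks its transactivation domain. Damage signals loosen that grip, and p53 then raises genes for growth arrest, DNA repair, cell death and metabolic adjustment, MDM2 itself among them, which closes a negative feedback loop. LIN28B, the targeted gene, binds let-7 precursors and keeps these microRNAs from maturing. The comparison asks how the transcripts of this pathway differ when LIN28B is targeted.

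Values are deposited FPKM, fragments scaled to transcript length and library size. Levels can be set side by side between genes only as far as reads were assigned to the right gene. LIN28B, the check of the labels, averaged 7.47 ± 1.42 FPKM in LIN28B KO and 24.4 ± 1.07 FPKM in control libraries (SD, n = 3 each), which left 30.7% of the control mean (exact two-sided permutation p = 0.1, the smallest p that 3 against 3 allows). The 7 plasma cell markers fixed for the check of the cell type summed to 1923 to 2854 FPKM in LIN28B KO and to 2924 to 2981 FPKM in control libraries, and all 7 were present in every library. The 6 T and NK cell markers summed to 1.99 to 2.91 FPKM in LIN28B KO and 1.39 to 1.64 FPKM in control libraries, with CD3D and NKG7 at 0 in all 6. The 6 myeloid markers summed to 2.58 to 3.62 FPKM in LIN28B KO and 1.29 to 1.51 FPKM in control libraries, and the 4 erythroid markers to at most 1.01 FPKM in any library, with HBA1 at 0 in all. Most of the epithelial and stromal list, which summed to 86.3 to 105.8 FPKM in LIN28B KO and 123.0 to 133.9 FPKM in control libraries, was KRT8, and EPCAM was at or near 0. The stromal collagen COL1A1 was at 1.43, 1.61 and 4.77 FPKM in LIN28B KO libraries 1 to 3, against 1.26, 0.925 and 0.761 FPKM in controls, so every LIN28B KO library lay above every control. DCN, another stromal gene, was at 1.93, 1.61 and 5.68 FPKM in LIN28B KO libraries, against 1.38, 4.12 and 1.85 FPKM in controls. The part of these marker differences in the results was not tested. LIN28B KO library 3 stood apart: it had 17676 genes at 1 FPKM or more, against 15922 and 15932 in the other LIN28B KO libraries and 15356 to 15430 in the controls. Protein-coding genes that averaged between 20 and 100 FPKM in the controls had a median log2 ratio of -0.51 there, against -0.07 in LIN28B KO libraries 1 and 2. Results are therefore given with all 6 libraries and, as the 5-library comparison, without that library on protein-coding genes.

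The p53 response genes spanned a wide range of levels. In control libraries 3 of the 33 averaged over 100 FPKM (MDM2, CCNG1 and BTG2), 7 lay between 30 and 100 FPKM, 12 between 10 and 30 FPKM and 11 under 10 FPKM. All 33 passed the filter of at least 1 FPKM in at least 3 libraries. Fragment numbers behind the values, estimated from the deposited bounds, were lowest for PLK2 (3.52 to 10.6 per library) and highest for BTG2 (1836 to 2329). They run low where the bounds hold more than counting error. PLK2 thus had the widest bounds for its values, which are the least certain. MDM2 had 389 to 614, against 1047 to 1876 for CCNG1, which was listed at lower FPKM in every library. The bounds of MDM2 were thus wide for its level, and its place among the highest genes is less certain.

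With all 6 libraries no p53 response gene passed limma's test (Benjamini-Hochberg adjusted p under 0.05 over 15803 genes), where 0.0949% of all genes tested did (0.0633% higher and 0.0316% lower). At an unadjusted p under 0.05, 3 were higher (MDM2, MDM4 and TP53INP1), against 4.95% of all genes, and 0 were lower, against 8.73%. The median log2 fold change of the 33 was 0.02, against -0.13 for all genes tested. On simulated data this 6-library test recovered 4% of log2 fold changes of 0.5, so a gene that did not pass may still differ. In the 5-library comparison 3 of the 33 rose, MDM2, TP53INP1 and BTG2, where 1.08% of 11308 protein-coding genes rose, and 0 fell, where 3.02% did (4.09% in either direction). There 6 were higher and 1 lower at an unadjusted p under 0.05, against 7.43% and 15.4% of all genes, and the median was 0.11 against -0.04. None of these 3 calls held when all 15336 genes that pass without library 3 were tested together, or when any 1 of the 5 libraries was left out; with 4 libraries no gene at all was called. After cyclic loess, a scaling that evens out differences between libraries along the range of levels, the same 3 genes rose in the 5-library comparison and 0 fell, against 1.08% and 1.17% of all genes. Fewer expressing cells and less RNA per cell cannot be told apart in bulk libraries.

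**Figure D1:**
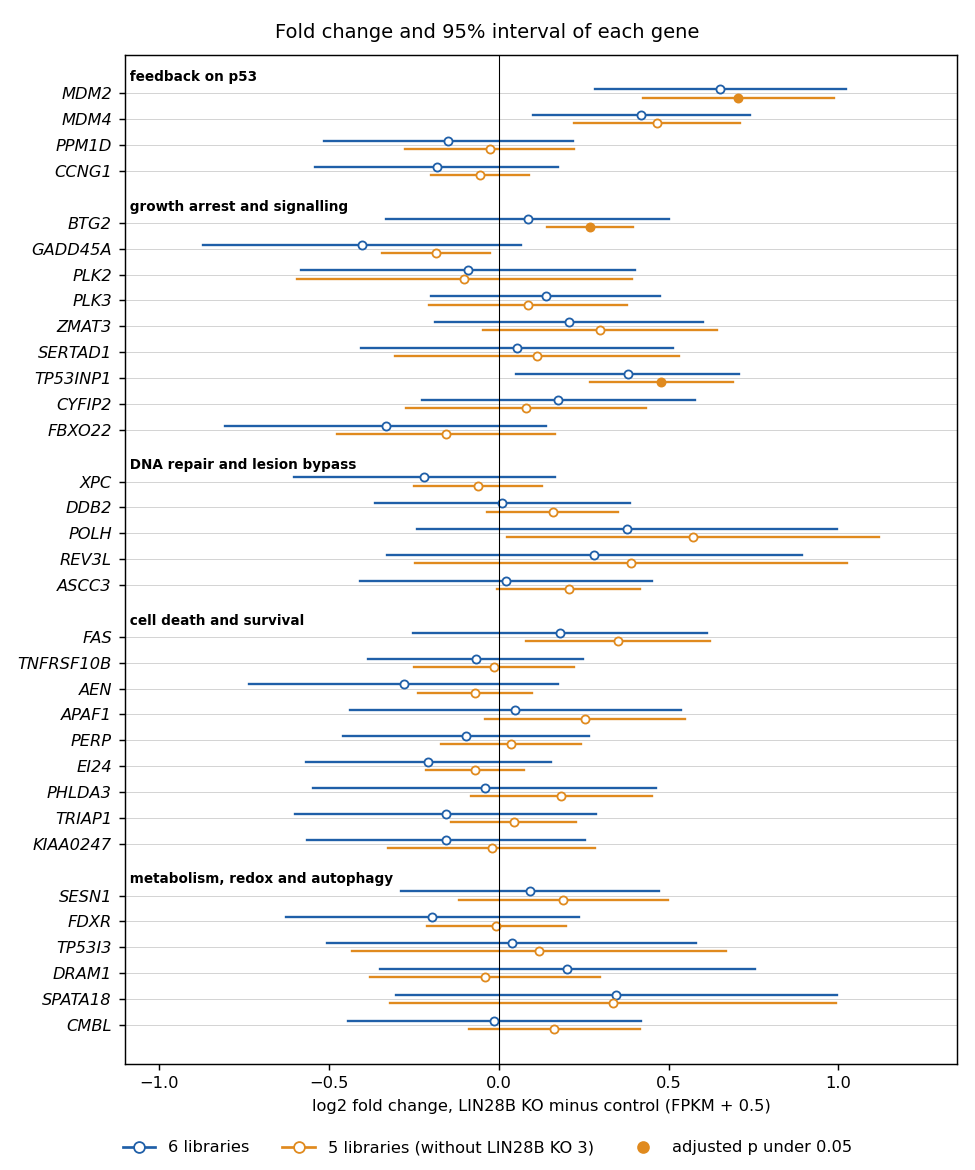
Log2 fold change of LIN28B KO over control on the log2(FPKM + 0.5) scale (x axis) for each of the 33 genes (rows, by role), with the 95% interval as a line; blue is the fit of 6 libraries and orange the 5-library comparison, and filled points have an adjusted p under 0.05. The filled points are MDM2 at 0.71, TP53INP1 at 0.48 and BTG2 at 0.27, all in the 5-library comparison, and most other intervals span 0.

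The feedback arm holds the genes that act on p53 itself. Both p53 inhibitors, MDM2 and MDM4, were higher in every LIN28B KO library than in any control, as were 7.61% of all genes tested. The phosphatase PPM1D and the cyclin CCNG1 overlapped the controls. MDM2 (ENSG00000135679, chromosome 12, 69201956 to 69239214 of GRCh37) stood at 419, 310.1 and 322 FPKM in LIN28B KO libraries 1 to 3, against 211 FPKM in control library 1, 225.4 in control library 2 and 225.9 in control library 3. The groups did not overlap, and LIN28B KO library 1 was the highest of all. In the 5-library comparison MDM2 rose 1.63-fold (log2 fold change 0.71, SE 0.12, limma adjusted p = 0.0337); with all 6 libraries its log2 value was 0.65 (SE 0.16, adjusted p = 0.254). With all genes tested without library 3 the adjusted p was 0.0811, and with any 1 of the 5 libraries left out the log2 fold change was 0.49 to 0.92 (adjusted p = 0.0521 to 0.117).

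The MDM2 locus holds other transcripts, and the strand setting of these libraries is not given in the sources used here, so reads from them cannot be told apart from those of MDM2. The antisense transcript RP11-611O2.5 was listed at 117, 118 and 113 FPKM in LIN28B KO libraries 1 to 3, against 83.7, 87.4 and 84.1 FPKM in control libraries 1 to 3. It was thus also higher in every LIN28B KO library. The neighbour CPM, a carboxypeptidase whose locus overlaps, was at 22.2, 20.7 and 22.3 FPKM in LIN28B KO libraries, against 14.8, 16.7 and 16.9 FPKM in controls, again without overlap between the groups. The processed pseudogene RP11-611O2.3 was at 54.2, 62.9 and 43.4 FPKM in LIN28B KO libraries, against 34.6, 43.3 and 41.3 FPKM in controls. Their part in the MDM2 values was not tested.

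p53 is known to act on MDM2 through a second promoter inside the gene, and MDM2 is the member with the largest fold change, so that window is shown. It is taken from RefSeq on GRCh38.p14 (chr12:68808767-68809066, plus strand), from 250 bases before to 50 bases after a transcript start, and capitals mark each match of 10 bases to the p53 half-site consensus with at most 1 mismatch outside its core C and G.
MDM2 inner promoter: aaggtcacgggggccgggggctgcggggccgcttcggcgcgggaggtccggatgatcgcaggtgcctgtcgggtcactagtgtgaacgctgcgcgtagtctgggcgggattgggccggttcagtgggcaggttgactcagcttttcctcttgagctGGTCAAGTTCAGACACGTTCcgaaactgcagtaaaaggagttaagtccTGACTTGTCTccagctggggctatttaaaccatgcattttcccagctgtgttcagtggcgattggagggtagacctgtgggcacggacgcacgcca
The window held 3 such matches, the first pair of them side by side, and none without a mismatch. A window of MDM2's outer promoter (chr12:68807922-68808221) held 1.

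MDM4 (chromosome 1, 204485511 to 204542871 of GRCh37) stood at 69.0, 55.5 and 56.2 FPKM in LIN28B KO libraries 1 to 3, against 46.2, 42.4 and 45.4 FPKM in control libraries 1 to 3. The groups did not overlap here either, and LIN28B KO library 1 was again the highest. Its log2 fold change was 0.42 with all 6 libraries (SE 0.14, limma adjusted p = 0.307) and 0.47 in the 5-library comparison (SE 0.10, adjusted p = 0.0584), which missed the threshold. PPM1D, the phosphatase that switches off p53 and its kinases, was at 9.51, 11.0 and 7.83 FPKM in LIN28B KO libraries, against 10.1, 10.3 and 10.8 FPKM in controls, with a 5-library interval of the log2 fold change from -0.27 to 0.22. CCNG1, cyclin G1, which brings a phosphatase to MDM2, averaged 169 ± 24.6 FPKM in LIN28B KO and 191 ± 10.8 FPKM in control libraries (SD, n = 3 each). An unnamed model that overlaps CCNG1, AC112205.1, was listed at 82.4 to 163 FPKM in LIN28B KO and at 59.5 to 125 FPKM in control libraries.

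**Figure D2:**
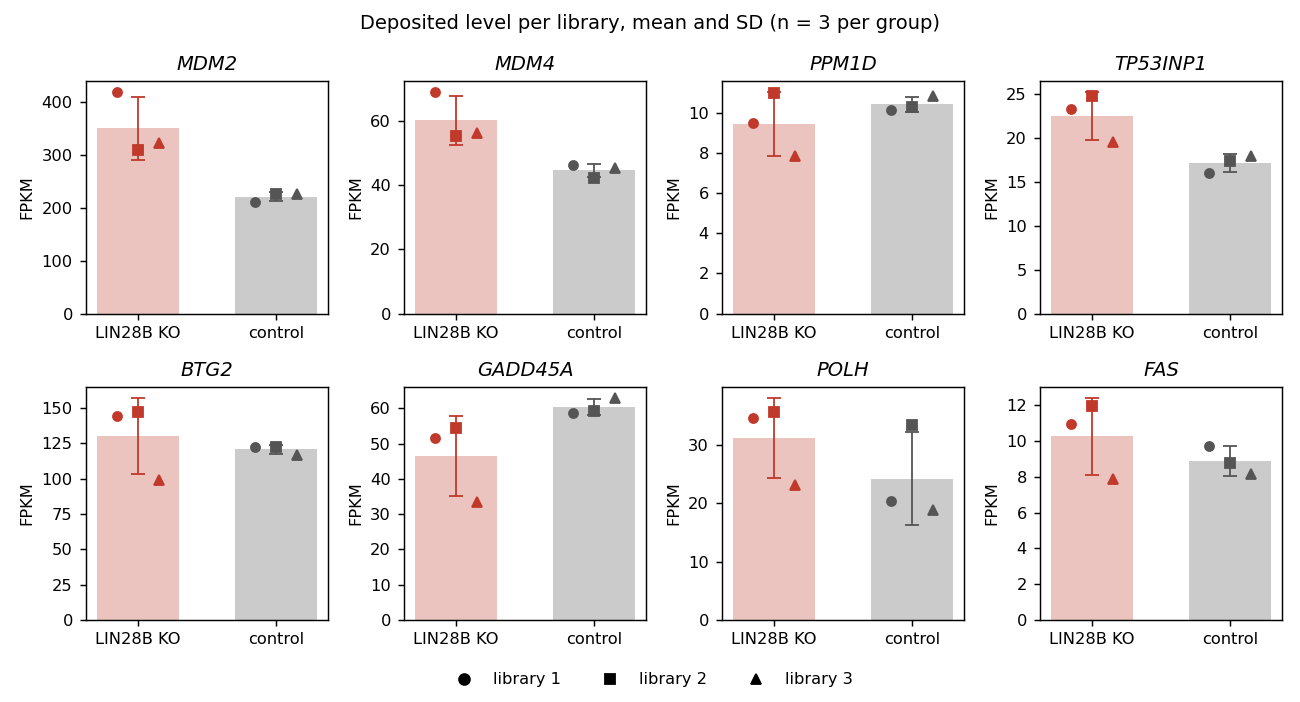
Deposited FPKM (y axis, from 0) of 8 p53 response genes in LIN28B KO (red, left) and control (grey, right) libraries; bars are means, error bars are SDs (n = 3 per group) and marker shapes are libraries 1 to 3 of each group. MDM2, MDM4 and TP53INP1 are higher in all 3 LIN28B KO libraries than in any control, GADD45A is lower in all 3, and LIN28B KO library 3 is the lowest of its group for 6 of these 8 genes, all but MDM2 and MDM4.

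Among 9 genes of growth arrest and stress signalling, 2 rose in the 5-library comparison and 0 fell, where 1.08% and 3.02% of all genes tested did. With all 6 libraries 0 passed, against 0.0949% of all genes. Their median log2 fold change was 0.09 in either comparison. TP53INP1, a stress-induced protein that promotes p53 activity and autophagy (chromosome 8, 95938200 to 95961639 of GRCh37), stood at 23.3, 24.8 and 19.5 FPKM in LIN28B KO libraries 1 to 3, against 16, 17.4 and 18.0 FPKM in control libraries 1 to 3. Every LIN28B KO library lay above every control, library 3 by the least. Such separation above the controls held for 7.61% of all genes tested. It rose 1.39-fold in the 5-library comparison (log2 fold change 0.48, SE 0.09, limma adjusted p = 0.0386) and had a log2 fold change of 0.38 with all 6 libraries (SE 0.14, adjusted p = 0.341). NDUFAF6, a mitochondrial complex I assembly factor, has a locus that overlaps that of TP53INP1. NDUFAF6 was at 16.2, 15.5 and 15.2 FPKM in LIN28B KO libraries, against 13.9, 13.4 and 14.7 FPKM in controls. It was thus also higher in every LIN28B KO library than in any control. Its part in the TP53INP1 values was not tested.

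BTG2, an antiproliferative protein that promotes mRNA deadenylation (chromosome 1, 203274619 to 203278730 of GRCh37), depended on LIN28B KO library 3. Its level was 144, 147 and 99.3 FPKM in LIN28B KO libraries 1 to 3, against 123 FPKM in control libraries 1 and 2 and 117 FPKM in control library 3. LIN28B KO libraries 1 and 2 lay above all controls and library 3 below all of them. Without library 3 BTG2 rose 1.20-fold (log2 fold change 0.27, SE 0.05, limma adjusted p = 0.0442), and with it the value was 0.09 (SE 0.18, adjusted p = 0.822). After cyclic loess BTG2 was called with all 6 libraries (log2 fold change 0.33, adjusted p = 0.0462), where 0.361% of all genes were called higher and 0.342% lower.

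GADD45A, a damage-induced inhibitor of the cell cycle and partner of repair factors, was listed lower, at 51.6, 54.5 and 33.4 FPKM in LIN28B KO libraries 1 to 3, against 58.8, 59.3 and 62.9 FPKM in control libraries 1 to 3. All LIN28B KO libraries lay below all controls, as they did for 20.1% of all genes tested, and the difference did not pass. The log2 fold change was -0.40 with all 6 libraries (SE 0.20, limma adjusted p = 0.397) and -0.18 in the 5-library comparison (SE 0.07, adjusted p = 0.167). The other members of this role overlapped between the groups. ZMAT3, an RNA-binding zinc finger protein, averaged 7.07 ± 0.869 FPKM in LIN28B KO and 6.06 ± 0.882 FPKM in control libraries. The stress kinases PLK2 and PLK3 averaged 2.66 ± 0.488 and 11.0 ± 1.01 FPKM in LIN28B KO, against 2.86 ± 0.554 and 9.98 ± 1.00 FPKM in control libraries. PLK2 means differed by less than the SD of either group, and PLK3 means by about 1 SD. SERTAD1, a CDK4-binding regulator of transcription, averaged 2.44 ± 0.224 FPKM in LIN28B KO and 2.35 ± 0.446 FPKM in control libraries. CYFIP2, a subunit of the actin-regulating WAVE complex, averaged 11.7 ± 1.54 FPKM in LIN28B KO and 10.4 ± 1.78 FPKM in control libraries. FBXO22, a substrate receptor of a ubiquitin ligase, averaged 44.1 ± 9.11 FPKM in LIN28B KO and 55.2 ± 9.30 FPKM in control libraries (SD, n = 3 each for all of these).

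None of the 5 genes of DNA repair and lesion bypass passed in either comparison, where 0.0949% (6 libraries) and 4.09% (5 libraries) of all genes did. Only POLH had an unadjusted p under 0.05, in the 5-library one, against 22.8% of all genes there. Their median log2 fold change came to 0.02 over the 6 libraries and 0.21 without library 3. POLH, the DNA polymerase that copies past ultraviolet lesions, stood at 34.6, 35.7 and 23.2 FPKM in LIN28B KO libraries 1 to 3, against 20.4, 33.5 and 18.8 FPKM in control libraries 1 to 3. Control library 2 lay close to LIN28B KO libraries 1 and 2, far from the other controls, and the 5-library log2 fold change of 0.57 had an interval from 0.03 to 1.12 (limma adjusted p = 0.201). The fragment numbers estimated for POLH were 77.7 to 144 per library. GTPBP2, whose locus overlaps that of POLH, was at 27.77, 30.48 and 20.45 FPKM in LIN28B KO libraries, against 25.61, 27.44 and 25.83 FPKM in controls. Its part in the POLH values was not tested. REV3L, the catalytic subunit of another bypass polymerase, had the same kind of split controls. REV3L was at 10.3, 10.5 and 8.24 FPKM in LIN28B KO libraries, against 6.76, 5.94 and 11.9 FPKM in control libraries. TRAF3IP2-AS1, an antisense transcript that overlaps REV3L, was at 8.48, 8.34 and 6.58 FPKM in LIN28B KO libraries, against 6.50, 6.39 and 6.14 FPKM in controls. Its part in the REV3L values was not tested. The lesion sensors DDB2 and XPC averaged 17.7 ± 3.08 and 19.8 ± 3.62 FPKM in LIN28B KO, against 17.4 ± 0.665 and 22.8 ± 0.927 FPKM in control libraries (SD, n = 3 each). ASCC3, a helicase of alkylation repair, averaged 21.9 ± 4.66 FPKM in LIN28B KO and 21.3 ± 1.44 FPKM in control libraries. DDB2 and ASCC3 lay above all controls in LIN28B KO libraries 1 and 2 and below all controls in library 3, as BTG2 did.

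None of the 9 genes of cell death and survival passed in either comparison, where 0.0949% (6 libraries) and 4.09% (5 libraries) of all genes did. Their median log2 fold change came to -0.10 over the 6 libraries and 0.04 without library 3. FAS, a death receptor of the TNF receptor family, stood at 10.9, 12 and 7.87 FPKM in LIN28B KO libraries 1 to 3, against 9.75, 8.77 and 8.13 FPKM in control libraries 1 to 3. LIN28B KO libraries 1 and 2 were above all controls and library 3 was below all of them; the 5-library log2 fold change was 0.35 (SE 0.11, limma adjusted p = 0.133). ACTA2, whose locus overlaps that of FAS, was at 2.74, 3.45 and 13.6 FPKM in LIN28B KO libraries, against 1.10, 0.919 and 1.26 FPKM in controls. FAS is shown because it had an unadjusted p under 0.05 in the 5-library comparison and an exact match to the p53 half-site consensus, in capitals, in a RefSeq promoter window of GRCh38.p14 (chr10:88991181-88991480, plus strand).
FAS promoter window: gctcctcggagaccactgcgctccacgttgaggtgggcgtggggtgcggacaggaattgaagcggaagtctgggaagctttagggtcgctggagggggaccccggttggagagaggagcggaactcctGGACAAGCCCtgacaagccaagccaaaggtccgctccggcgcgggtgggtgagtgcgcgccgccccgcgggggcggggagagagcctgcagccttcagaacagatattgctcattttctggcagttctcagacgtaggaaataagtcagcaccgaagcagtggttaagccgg

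The other death receptor, TNFRSF10B, averaged 38.1 ± 4.32 FPKM in LIN28B KO and 39.9 ± 2.52 FPKM in control libraries, with a 5-library interval of the log2 fold change from -0.25 to 0.22. APAF1, the scaffold of the apoptosome, was at 6.85, 8.44 and 4.79 FPKM in LIN28B KO libraries, against 6.32, 6.13 and 6.44 FPKM in controls. AEN, an apoptosis-enhancing nuclease, was below all controls in all 3 LIN28B KO libraries, at 40.5, 41.1 and 26.2 FPKM against 41.2, 42.4 and 45.0 FPKM. The gap was small outside library 3 (5-library log2 fold change -0.07, SE 0.07, limma adjusted p = 0.605), and 20.1% of all genes tested lay below all controls in this way. The remaining 5 genes of this role overlapped between the groups, and LIN28B KO library 3 was the lowest of the 6 libraries for each. PERP, a membrane protein of p53-driven apoptosis, averaged 16.5 ± 2.70 FPKM in LIN28B KO and 17.5 ± 0.584 FPKM in control libraries. EI24, a membrane protein of the endoplasmic reticulum, averaged 74.8 ± 12 FPKM in LIN28B KO and 85.7 ± 2.74 FPKM in control libraries. It has processed pseudogenes, so its values are uncertain. The highest listed of these, EI24P2, averaged 2.14 FPKM over the 6 libraries. POLH, CCNG1 and TRIAP1 also have processed pseudogenes, which averaged 0.09, 0 and 0 FPKM. For PERP and EI24 the spread was wider in LIN28B KO than in control libraries. PHLDA3, an inhibitor of AKT, averaged 19.6 ± 5.25 FPKM in LIN28B KO and 19.7 ± 1.96 FPKM in control libraries. TRIAP1, an inhibitor of apoptosis, averaged 30.9 ± 7.18 FPKM in LIN28B KO and 33.8 ± 1.05 FPKM in control libraries. KIAA0247, now called SUSD6, averaged 7.42 ± 1.22 FPKM in LIN28B KO and 8.28 ± 1.07 FPKM in control libraries (SD, n = 3 each for all of these).

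None of the 6 genes of metabolism, redox balance and autophagy passed in either comparison, where 0.0949% (6 libraries) and 4.09% (5 libraries) of all genes did. None had an unadjusted p under 0.05 either, against 13.7% and 22.8% of all genes. Their median log2 fold change came to 0.06 over the 6 libraries and 0.14 without library 3. SESN1, a sestrin that restrains mTORC1, was at 18.1, 14.0 and 12.9 FPKM in LIN28B KO libraries, against 14.4, 14.5 and 12.8 FPKM in controls. The antisense transcript RP11-787I22.3 overlaps SESN1. It was at 7.35, 10.15 and 8.29 FPKM in LIN28B KO libraries, against 5.89, 5.12 and 6.75 FPKM in controls. Its part in the SESN1 values was not tested. DRAM1, a lysosomal protein of p53-driven autophagy, was at 9.76, 7.54 and 14.5 FPKM in LIN28B KO libraries, against 8.06, 8.83 and 9.68 FPKM in controls, so that library 3 stood well above the controls, unlike for most of the 33 genes. The other 4 had group means within the larger SD of each other. FDXR, the mitochondrial ferredoxin reductase, averaged 17.6 ± 3.89 FPKM in LIN28B KO and 19.8 ± 0.792 FPKM in control libraries. TP53I3, a quinone oxidoreductase, averaged 3.71 ± 0.871 FPKM in LIN28B KO and 3.61 ± 0.930 FPKM in control libraries. FAM228B, whose locus overlaps that of TP53I3, averaged 4.91 FPKM over the 6 libraries, and its part was not tested. SPATA18, a mitochondrial quality control protein, averaged 1.62 ± 0.136 FPKM in LIN28B KO and 1.22 ± 0.505 FPKM in control libraries. CMBL, a hydrolase, averaged 10.3 ± 2.15 FPKM in LIN28B KO and 10.3 ± 0.900 FPKM in control libraries (SD, n = 3 each).

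Set library by library against the control mean, LIN28B KO library 3 differed from the other LIN28B KO libraries for the p53 response genes and for all genes alike. The median log2 ratio of the 33 genes was 0.14 in LIN28B KO library 1, 0.11 in library 2 and -0.28 in library 3, where the medians over all 15803 genes tested were -0.01, -0.02 and -0.35. In library 3, 19 of the 33 lay below all controls and 6 above, against 65.4% and 18.4% of all genes; MDM2, MDM4 and TP53INP1 were among those above. After cyclic loess the same medians were 0.15, 0.12 and 0.09, with all genes at 0.007, 0.005 and 0.009, and 15 of the 33 lay above all controls in library 3 and 6 below, against 38.0% and 36.5% of all genes. MDM2 had log2 ratios of 1.02, 0.58 and 1.16 in LIN28B KO libraries 1 to 3 after that scaling, and MDM4 of 0.69, 0.37 and 0.84.

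All 3 LIN28B KO libraries lay above all controls for 3 of the 33 genes as deposited, against 7.61% of all genes, and for 8 after cyclic loess, against 13.7%. These 8 were MDM2, MDM4, TP53INP1, BTG2, ZMAT3, DDB2, FAS and ASCC3. All 3 lay below all controls for GADD45A and AEN as deposited, against 20.1% of all genes, and for GADD45A after cyclic loess, against 13.3%. Without library 3 and without scaling, 11 of the 33 lay above all controls and 2 below, against 15.0% and 26.4% of all genes. With cyclic loess on protein-coding genes of all 6 libraries, an alternative added after seeing the data, 4 rose, MDM2, MDM4, TP53INP1 and BTG2, with log2 fold changes of 0.92, 0.64, 0.55 and 0.33 (limma adjusted p = 0.0216, 0.0390, 0.0248 and 0.0248), where 1.15% of all genes rose and 1.24% fell.

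**Figure D3:**
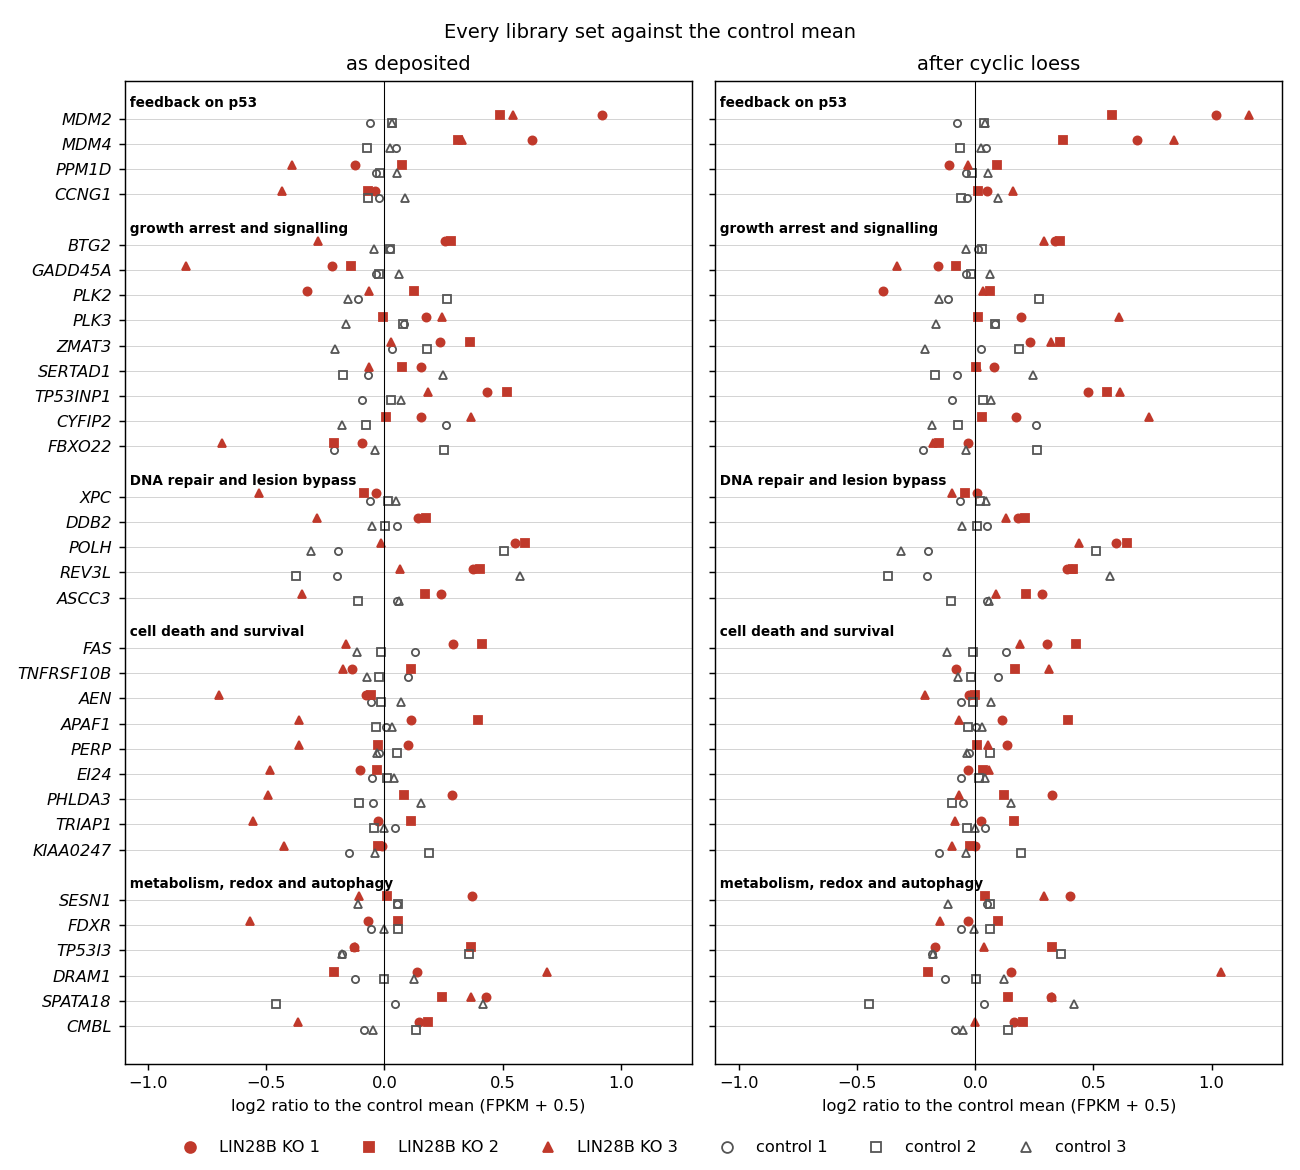
Log2 ratio to the control mean on the log2(FPKM + 0.5) scale (x axis) for each of the 33 genes (rows, by role), as deposited (left) and after cyclic loess (right); filled red markers are LIN28B KO libraries, open grey markers controls, and shapes are libraries 1 to 3. The triangle of LIN28B KO library 3 lies left of the controls for 19 genes as deposited and for 6 after cyclic loess, while all 3 red markers of MDM2, MDM4 and TP53INP1 lie to the right of the controls in both panels.

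Other genes of the pathway were counted for comparison, from lists chosen with earlier results of these data known. Of 28 other p53 targets in the files, 25 were tested with all 6 libraries and 0 passed (2 higher and 2 lower at an unadjusted p under 0.05, against 4.95% and 8.73% of all genes). In the 5-library comparison 2 of 24 rose and 1 fell, against 1.08% and 3.02% of all genes. CDKN1A, the p21 inhibitor of cyclin-dependent kinases, was at 255, 259.6 and 162 FPKM in LIN28B KO libraries, against 202, 197 and 207.5 FPKM in controls (5-library log2 fold change 0.35, limma adjusted p = 0.0266). TNFRSF10D, a decoy receptor of TRAIL, was at 26.8, 25.6 and 18.3 FPKM in LIN28B KO libraries, against 20.5, 19.5 and 18.7 FPKM in controls (log2 fold change 0.41, adjusted p = 0.0446). For both, libraries 1 and 2 lay above all controls and library 3 below. PCNA, the sliding clamp of DNA replication, fell to 74.9, 71.1 and 52.3 FPKM in LIN28B KO libraries, against 91.2, 92.9 and 101.7 FPKM in controls (log2 fold change -0.38, adjusted p = 0.0386, and 0.0834 after cyclic loess).

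Of 19 upstream regulators of p53 in the files, 18 were tested; 0 passed with all 6 libraries (0 higher and 3 lower at an unadjusted p under 0.05, against 4.95% and 8.73% of all genes) and 3 fell in the 5-library comparison, against 3.02% of all genes. CHEK2, a checkpoint kinase that phosphorylates p53, stood at 12.8, 13.7 and 14.4 FPKM in LIN28B KO libraries, against 18.8, 19.5 and 20.7 FPKM in controls (log2 fold change -0.56, SE 0.09, limma adjusted p = 0.0313; after cyclic loess -0.52, adjusted p = 0.0437). All LIN28B KO libraries, the third included, were below all controls, as for 20.1% of all genes tested. RPL5 and RPL11, ribosomal proteins that bind MDM2, fell by 0.22 and 0.18 on the log2 scale (adjusted p = 0.0473 and 0.0447), and neither call held after cyclic loess (adjusted p = 0.235 and 0.421); ribosomal protein genes have many processed pseudogenes, so these values are uncertain.

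The p53 response genes were also read for sequence. Of the 33, 26 had a RefSeq promoter window (39 windows). An exact p53 half-site was held by 7 of these 26 (26.9%), against 8.06% of 27305 genes with a window (35116 windows). A gene counted if any of its windows matched, and the p53 response genes had more windows per gene. The 27305 genes were not limited to those tested here. With at most 1 mismatch the shares were close, at 15 of 26 (57.7%) against 50.1%. Since the genes had been chosen as p53 targets, these shares are a description. No window was read for TP53INP1, GADD45A, TNFRSF10B, PHLDA3, ASCC3, CMBL and FBXO22. Neither the window of MDM4 nor that of BTG2 held a match, even with 1 mismatch; many p53 sites lie outside such windows.

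let-7 pairs with its targets through bases 2 to 8, the seed, and LIN28B blocks its maturation, so the 3′ UTRs were read for the complement of the seed, CTACCTC, on the mRNA strand only. The mature let-7a and miR-98, a member with another tail, are given from RefSeq with the seed in capitals.
hsa-let-7a-5p: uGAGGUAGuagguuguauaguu
hsa-miR-98-5p: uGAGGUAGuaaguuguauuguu
Of the 33 genes, 4 held the complement in their longest 3′ UTR of GENCODE 29 (12.1%), against 11.0% of 11309 tested protein-coding genes, so the share was near that of all genes, with a median UTR length of 1929 against 1369 bases. The sites are given with the complement in capitals and the bases beside it.
MDM4: atacctacccttttCTACCTCatcattt
FAS: atttaaataaggctCTACCTCaaagacc
AEN, first site: cttccttttgttgcCTACCTCttcctcc
AEN, second site: gatagtggtacggcCTACCTCatagggt
FBXO22: gtggcgtggactatCTACCTCcagactg
None of the 4 passed in the 6-library or the 5-library comparison: their 5-library log2 fold changes were 0.47 for MDM4, 0.35 for FAS, -0.07 for AEN and -0.15 for FBXO22. MDM2, TP53INP1 and BTG2 held no complement of 7 bases. The shorter TACCTC was held by 12 of the 33 (36.4%), against 27.5% of all genes: once by MDM2, BTG2, ZMAT3, SPATA18, KIAA0247, DRAM1 and APAF1, in 2 places by FAS, AEN and FBXO22, in 3 by TP53INP1 and in 4 by MDM4.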

How the data were processed

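Per the file headers, the values the authors deposited are FPKM, each listed beside its confidence bounds and a status word. Per the submitters' processing notes, the tools named are cutadapt, TopHat2 and HTSeq and the build GRCh37; for versions, roles, strand setting and the program behind the tables, nothing is given in the sources used here. Rows of the same gene were summed, and 25 genes with a failed estimate in any library were left out. Loci of several members overlap those of other genes, and not all of these are named. Fragment numbers were estimated by squaring the ratio of 2 FPKM to the gap up to the upper bound. Such estimates equal fragment numbers only where the bounds hold counting error alone, and they run low where the bounds hold more. They came to 4808210 to 8368315 per library. limma 3.58.1 under R 4.3.3 compared the groups on log2(FPKM + 0.5), its trend option on and no covariate added, for genes that reached 1 FPKM in 3 or more libraries. Benjamini-Hochberg adjustment ran over every gene tested. The 5-library comparison left out LIN28B KO library 3 and kept genes that GENCODE 29 lists as protein-coding. The test was tried on simulated data first. With 6 libraries it recovered 4% of genes given a log2 fold change of 0.5 and 38% of those given 1. In the 5-library comparison it recovered 28% and 66%. A gene that did not pass may therefore still differ by such amounts. Fold changes on this scale understate those of low genes. The members, the gene lists and the 5-library comparison were chosen with earlier results of these data known. All 33 members are named; values in every library are given for MDM2, MDM4, PPM1D and members with an unadjusted p under 0.05, and for some others chosen after their values were seen, and called genes are named from the other lists. Promoter and microRNA sequences are from RefSeq (GRCh38.p14) and 3′ UTRs from GENCODE 29, used without moving coordinates between builds.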

Additional observations from a re-analysis of the deposited data

How the results depend on the processing

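The 6-library comparison called 0 of the 33 p53 response genes under every setting run except cyclic loess, with 1 (BTG2), and cyclic loess on protein-coding genes alone, with 4, a setting chosen after seeing the data. The 5-library comparison called 3, and still 3 with pseudocounts of 0.1 and 1 and with cyclic loess. It called 0 without a filter and 0 with all genes tested. Leaving out any 1 of its 5 libraries gave 0 to 0, where no gene at all was called, so that says nothing about the single genes. The labels do not say whether the replicate numbers pair the libraries. Same-numbered libraries correlated at -0.02, 0.04 and -0.03 in their deviations from the group means. Deviations within a group of 3 sum to 0, so these values cannot settle it. With the replicate block, the 5-library comparison called 0 of the 33 and 0 genes in all, and the 6-library comparison 0 of the 33. LIN28B had a log2 fold change of -1.66 both without a filter and with the replicate block, where its call was lost (adjusted p = 0.142 and 0.0604), and of -1.75 to -1.5 with each library left out in turn (adjusted p up to 0.185). No fold change of a p53 response gene called in its main fit changed sign. With 6 libraries 43 of 462 values had another sign than the main fit, and with 5 libraries 25 of 363, all uncalled. BTG2, called with 6 libraries after cyclic loess, had a log2 fold change of -0.0122 without LIN28B KO library 2. A let-7 complement of 6 bases was held by 12 of the 33 genes (36.4%, against 27.5% of all genes), and a p53 half-site with at most 1 mismatch by 15 of 26 (57.7%, against 50.1%). The deposited bounds reached their widest, relative to the value, for PLK2, SPATA18 and TP53I3. Whether depth or the assignment of reads set that width was not tested.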
